A study of Drosophila melanogaster with 4 samples.

Results

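The right arm of chromosome 3 (3R) carried 755 of the 4198 peaks that were called for GFP-tagged Notch in whole larvae of *Drosophila melanogaster* (18.0% of the list, exact 95% binomial interval 16.8 to 19.2%). These peaks were chosen by position alone, as those on 3R whose midpoint lies beyond 1 Mb of FlyBase release 5. No filter on score was set, and the other 33 peaks of 3R, which lie in the Mb next to the centromere, were left out. The last peak below that boundary runs from 912454 to 913926 with a score of 59.9, and the first one beyond it runs from 1048640 to 1050190 with a score of 267.6. Chromatin was taken from wandering L3 larvae of the strain Notch-GFP, whose genotype is given as PBac{y[+]-attP-3B}VK00033 and whose transgene holds the Notch genomic coding region. All 4 libraries share that strain, stage and transgene, and 2 were made from DNA precipitated with the GFP antibody ab290 and 2 from input DNA. Per the labels' protocols, larvae grew at 25 °C and were cross-linked in 1.8% formaldehyde for 15 min. The protocol text names y; bw cn sp flies, while the sample labels name the tagged strain, and the sex of the larvae is unknown.

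Notch is a receptor at the cell surface. After its ligands Delta or Serrate bind, its intracellular domain is released, enters the nucleus and joins the DNA-binding protein Su(H) and the coactivator Mastermind at target genes. In larvae the pathway is known for patterning the imaginal discs and selecting neural precursors, and 3R holds many of its genes, among them Delta, Serrate, Hairless, neuralized, groucho and the E(spl) complex.

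Because the whole series is available as 1 list of called regions, no peak has a value per library and no difference described here could be tested over samples. Counts, shares and medians are therefore descriptions. Their 95% intervals (exact binomial for shares, exact Poisson for rates, order statistics for medians) cover counting error only and treat neighbouring peaks as independent. Read depth is unknown, and chromatin from untagged larvae was not analysed here. The score is the authors' own peak score of unstated type, used only to rank and summarise peaks within the list.

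The peaks of 3R were short and mostly of low score, with a long upper tail. Widths ran from 201 to 4088 bp around a median of 487 bp (459 to 522), and their quartiles were 338.5 and 769.5 bp. Together they covered 465 kb, which is 1.73% of the 26.9 Mb between the boundary and the last peak. The median score was 26.1 (23.9 to 28.7), the quartiles were 14.6 and 58.3, and the range was 6.82 to 403.3. A score over 100 was reached by 97 peaks (12.8%, interval 10.5 to 15.4%). Wider peaks had higher scores: over these 755 peaks, which share libraries and calling, Spearman's rho was 0.770 and Pearson's r 0.609. The peaks came to 28.1 per Mb (26.1 to 30.2). Over the whole of the other arms the rates were 26.5 (24.5 to 28.6) on 3L, 28.6 (26.5 to 30.9) on 2L, 32.8 (30.4 to 35.3) on 2R and 35.2 (32.8 to 37.7) on the X. Median scores were 25.4 on 3L and 24.4 on the X, and their intervals of 23.1 to 28.5 and 21.9 to 26.8 overlap that of 3R.

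**Figure D1:**
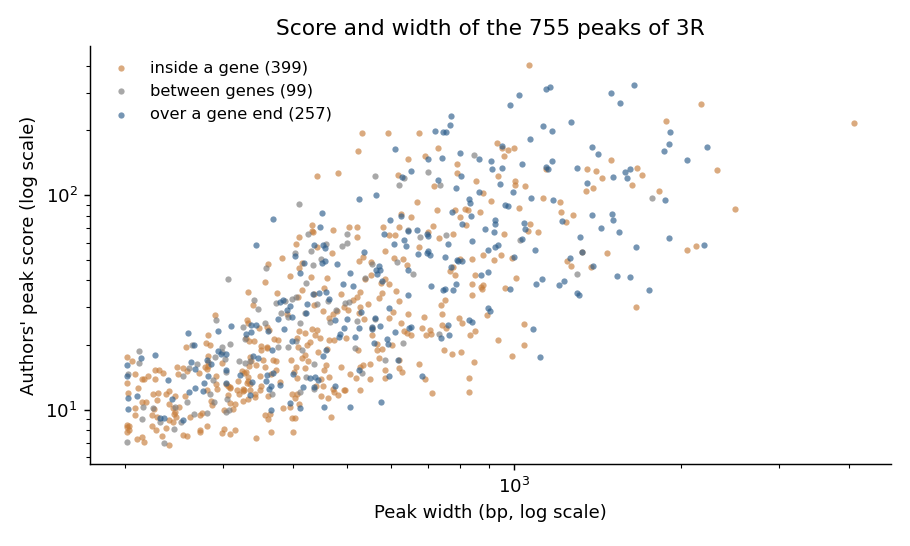
Authors' peak score against peak width in bp, both on log scales, for the 755 peaks of 3R. Each point is 1 peak, coloured by whether it covers a gene end (257 peaks), lies inside a gene without covering an end (399) or lies between genes (99). Score and width rise together, and the highest score, 403.3, belongs to a peak inside a gene.

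Peaks were spread along the whole arm, unevenly. In 26 full windows of 1 Mb the number of peaks had a median of 28, with 10 in the lowest window (6000001 to 7000000) and 49 in the highest (5000001 to 6000000), which adjoin each other. Windows with more genes held somewhat more peaks, Spearman's rho being 0.307 and Pearson's r 0.454 over the 26 windows. The window with 49 peaks held 192 genes and the one with 10 peaks held 115. The relation was loose, since the window with most genes, 197, held 25 peaks and the one with fewest, 112, held 32. Median scores of the windows lay between 19.2 and 39.6.

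To place the peaks relative to genes, gene positions from a release 6 table were moved to release 5 by subtracting 4174278 bases. That shift was checked first, by counting how many peaks cover the outer end of a gene. A gene end here is either outer boundary of an annotated gene, since the table has no strand and the start of transcription cannot be told from its end. At the shift itself 257 of the 755 peaks covered a gene end. With the genes displaced by 2 to 20 kb to either side, the number fell to between 94 and 156, with a median of 121.0. All 6 stretches of 5 Mb showed their highest count within 300 bp of the shift when displacements under 2 kb were searched. In the 2 Mb around Ubx the number was 16 of 65 peaks at the shift and 22 at a displacement of -200 bp, against a median of 10.0 further off. In the 2 Mb around InR it was 16 of 66 at the shift and 19 at -200 bp, against a median of 9.0. Both regions also reached 16 and 20 at single displacements further off, so these 2 regions alone place the genes less firmly than the whole arm does. Distances to gene ends given here may be off by up to about 300 bp.

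**Figure D2:**
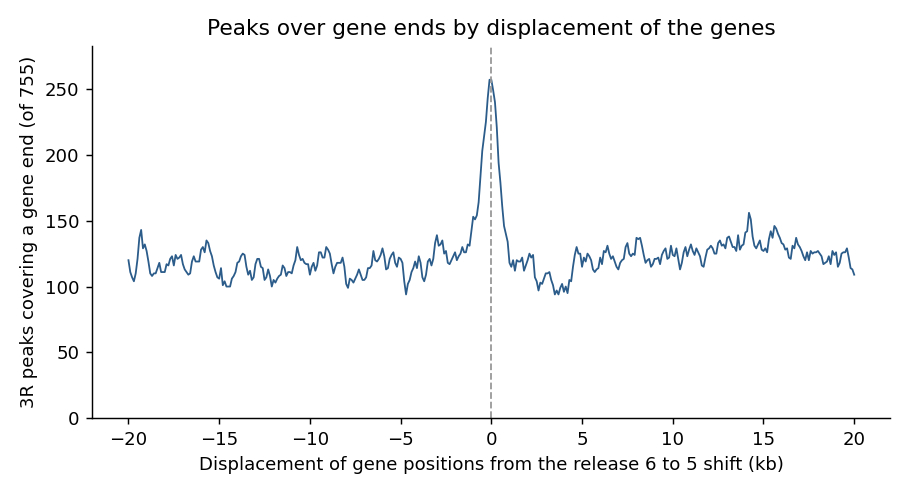
Number of 3R peaks that cover a gene end (of 755, vertical axis) when all genes are displaced from the release 6 to 5 shift by the distance on the horizontal axis, in kb. The maximum of 257 is at the shift and 100 bp to one side of it, and the values from 2 to 20 kb off lie between 94 and 156.

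Peak centres gathered at the ends of genes. Of the 755 peaks, 257 (34.0%, interval 30.7 to 37.5%) covered an end, 399 (52.8%) lay inside a gene without covering an end and 99 (13.1%) lay between genes. The centres of 452 peaks (59.9%, 56.3 to 63.4%) were within 1 kb of a gene end, while 32.6% of the sequence is that close to one. The median distance from a centre to the nearest gene end was 0.567 kb (0.494 to 0.681 kb), and 56 peaks were over 10 kb away. The most remote was a peak inside fruitless (fru), 60.3 kb from any gene end. Gene bodies as a whole held no more than their share of the peaks, since 553 centres (73.2%, 69.9 to 76.4%) fell inside genes and genes span 73.3% of the sequence. Outside genes the peaks stayed close: 101 centres were within 250 bp of an end, where evenly spaced positions would give 28.0. Gene positions may be off by up to about 300 bp, so whether a centre this near an end lies inside or outside the gene is not resolved.

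**Figure D3:**
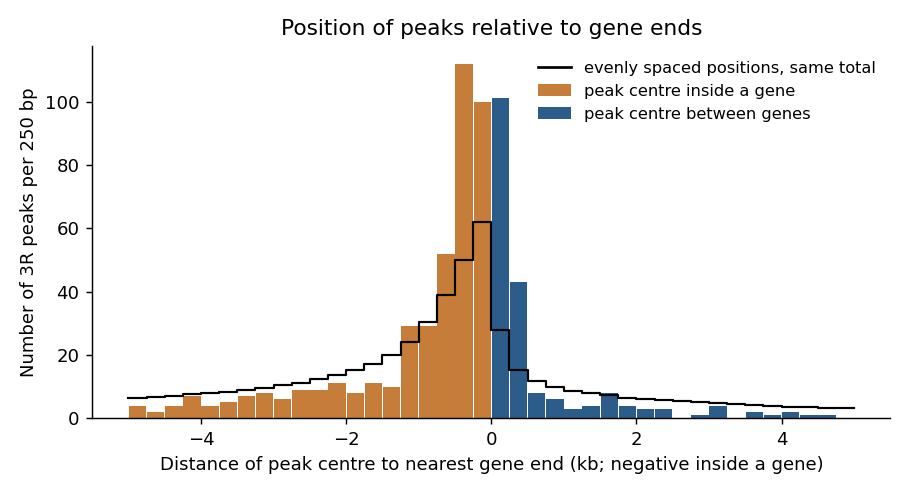
Number of 3R peaks per 250 bp (vertical axis) by the distance of the peak centre to the nearest gene end in kb, negative inside a gene. The black line gives evenly spaced positions scaled to the same total. The 250 bp just outside genes held 101 peaks and the 250 bp just inside held 100, above the line at 28.0 and 62.1.

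Peaks at gene ends had higher scores than the others. The median score was 42.7 (36.1 to 49.9) over gene ends, 21.0 (18.9 to 23.4) inside genes and 24.4 (19.3 to 29.1) between genes. The 72 peaks that covered ends of more than 1 gene had a median of 61.7 (46.4 to 79.9), and the 185 that covered the end of a single gene had 36.3 (28.1 to 44.9). Across the score quartiles, from lowest to highest, the share of peaks over a gene end went from 20.0% (38 of 190) through 27.1% and 39.4% to 49.7% (94 of 189). Width moves with this result: median widths by quartile were 304.5, 406, 563.5 and 888 bp, and a wider peak covers an end more readily. The share of centres within 1 kb of an end is counted from the midpoint alone. It went from 53.7% (46.3 to 60.9%) in the lowest quartile to 66.7% (59.5 to 73.3%) in the highest, and it too was higher among wide peaks. Within classes of like width, the share over a gene end was 15.1% (9.33 to 22.5%) for the lower scored and 28.3% (20.7 to 37.0%) for the higher scored peaks of 201 to 390 bp. It was 28.0% and 32.0% for peaks of 393 to 644 bp, and 46.8% and 54.0% for those of 645 to 4088 bp, with intervals that overlap in all 3 classes. The shares of centres within 1 kb of an end were closer together, at 54.8% and 57.5% in the narrow class, 53.6% and 56.0% in the middle one and 66.7% and 70.6% in the wide one.

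The highest-scoring peaks lay mostly at the ends of genes, often between close neighbours. By score, 8 of the first 10 covered a gene end, and 5 of those covered the ends of a pair of genes. The highest, from 8889412 to 8890475 with a score of 403.3, was an exception. It lay inside single-minded (sim), which encodes the bHLH-PAS regulator of the nervous system midline and is a known Notch target there, 6.47 kb from the nearest gene end. A pair of weaker peaks also overlapped sim, with scores of 44.9 and 29.9. The peak of rank 2, from 11924832 to 11926471 with a score of 325.4, covered an end of Akt, the kinase at the core of insulin signalling. Rank 3, from 8537654 to 8538813 with a score of 319.8, covered an end of PolQ, a DNA polymerase of break repair. Rank 4, from 27283431 to 27284571 with a score of 311.8, covered ends of Gprk2, a receptor kinase that acts in Hedgehog signalling, and of the lysyl oxidase gene Loxl1. Rank 5, from 11619263 to 11620754 with a score of 297.6, covered an end of nsl1, a subunit of a histone acetylation complex.

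The next ranks followed the same arrangement. Rank 6, from 15686771 to 15687789 with a score of 291.6, lay between Ire1, the sensor of unfolded protein in the endoplasmic reticulum, and Mrm2. Rank 7, at 1048640 to 1050190, lay between CG2604 and CG14664. Rank 8, from 14069096 to 14071261 with a score of 265.4, was inside 14-3-3epsilon, which encodes a phosphoserine-binding adaptor, 1.93 kb from an end. Rank 9, from 11798334 to 11799318 with a score of 262.2, lay between Hel89B and moira (mor), a core subunit of the Brahma remodelling complex. Rank 10, from 1416858 to 1417626 with a score of 233.8, lay between the splicing factor gene noi and Vha26, a subunit of the vacuolar proton pump. The 3 widest peaks all lay inside genes. They were in Syp (4088 bp, score 215.7), in the ubiquitin-conjugating enzyme gene eff (2494 bp, score 86.0) and in Sox100B (2319 bp, score 130.4).

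Many peaks came in small groups. Joining peaks whose midpoints are under 5 kb apart gave 420 single peaks, 81 pairs and 46 groups of 3 or more, which held 173 peaks (22.9%, 20.0 to 26.1%). The share in such groups was 20.3% (17.3 to 23.6%) on 3L, 25.1% (21.9 to 28.5%) on 2R, 28.4% (25.0 to 32.0%) on 2L and 29.3% (26.1 to 32.6%) on the X. The value for 2L is over the whole arm, and its histone gene repeat array was not left out. There 187 peaks lay in only 28 groups, so the higher share on 2L came with fewer and larger groups than on 3R. On 3R a peak's closest neighbour was 6.43 kb away at the median (5.48 to 7.26 kb). Grouped peaks lay less often at gene ends: 21.4% (15.5 to 28.3%) of them covered one, against 31.5% (24.4 to 39.2%) of paired and 40.2% (35.5 to 45.1%) of single peaks. Their median score was 24.2 (17.8 to 29.9), against 28.5 (24.7 to 34.6) for single peaks. In 18 of the 46 groups all midpoints lay in the span of 1 gene, and the median length of these genes was 34.7 kb.

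The group with most members, 8 peaks between 5904836 and 5920125, ran along the gene of the long noncoding RNA CR45054 and the sequence beside it, up to lncRNA:CR43459, with the microRNA gene mir-317 in between. Its scores ran from 12.2 to 67.3, and 4 of the 8 exceeded 36. The second, 7 peaks between 17432372 and 17445839, lay along 1 side of the insulin receptor gene InR and ended in the sequence between InR and the cell cycle regulator E2f1. Its last peak, from 17445277 to 17445839, scored 122.5, and the peak over the end of InR beside it scored 14.1. The other 5 scored 12.4, 12.6, 12.4, 38.7 and 68.1.

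Other groups joined 1 or a few strong peaks to several weak ones. The 6 peaks in and beside Sox100B, a SoxE-family regulator gene, lay between 26899899 and 26912620. They fell into 3 of nearly equal score (130.4, 123.2 and 120.2) and 3 from 7.51 to 13.4. The peak of 120.2 lay outside the gene, 3.17 kb from its end. At trithorax (trx), which encodes a histone methyltransferase that keeps Hox genes active, and the gene red beside it, 6 peaks lay between 10104124 and 10115021. Their highest score, 76.1, was that of the peak over the end of trx, and the neighbour at 47.0 was the only other one above 16. The last peak, of 9.96, covered an end of red. At osa, which encodes a subunit of the Brahma complex, and the gene Pxt beside it, 6 peaks lay between 13536977 and 13545281. The 94.7 of the peak over the end of osa stood above the others, which scored 8.02 to 16.9. The peak of 16.9 covered an end of Pxt.

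**Figure D4:**
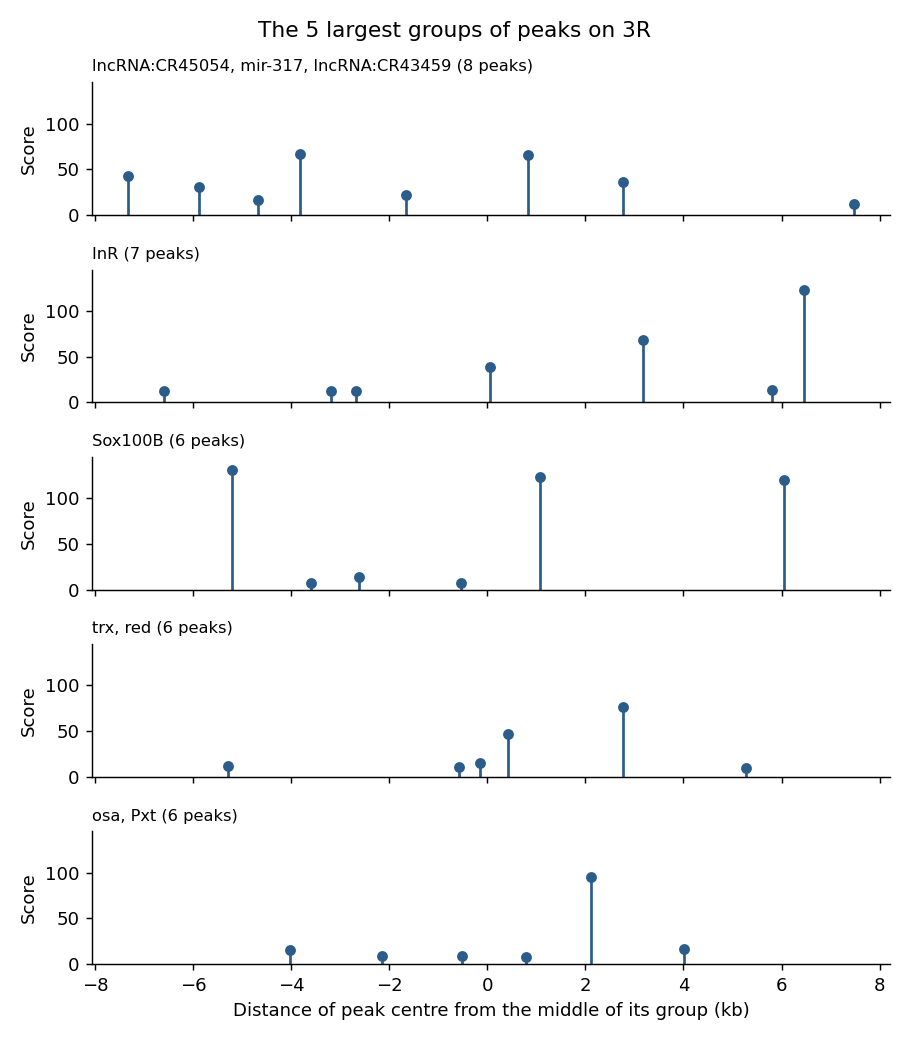
Scores of the peaks (vertical axis) in the 5 groups with most members, by distance of the peak centre from the middle of the group in kb. Each line and dot is 1 peak, and panels are named by genes the group overlaps. The Sox100B group has 3 peaks at 120.2 to 130.4 with weak ones between, and the peak of 120.2 lies outside the gene. The group of osa and Pxt has 1 at 94.7 and 5 at 8.02 to 16.9, and the peak of 16.9 covers an end of Pxt.

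Counted by gene, peaks were found at a minority of the arm's genes, and the share of genes with a peak was higher among longer genes. Of 4072 genes of 3R beyond the boundary, 558 (13.7%) were overlapped by a peak anywhere in their span, 332 (8.15%) had a peak over an outer end and 713 (17.5%) had a peak centre within 1 kb of an outer end. Overlap with a peak went from 5.50% of genes under 2 kb through 16.9% of those of 2 to 10 kb and 44.0% of those of 10 to 50 kb to 62.7% of the 59 genes over 50 kb. A peak over an end was also commoner at longer genes, with 4.80%, 10.4%, 18.0% and 22.0%. Among protein-coding genes, peaks per 100 kb of gene were 4.01, 4.68, 3.32 and 2.34 in the same order, so longer genes were hit more often without being more densely covered. Gene lists are therefore read both against all genes and against the number expected if each gene had been overlapped as often as all genes of its length class. The lists were chosen with earlier results of these data known, so their counts are descriptions and not tests.

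In the Notch pathway list, 6 of 12 genes on 3R were overlapped by a peak (50.0%, interval 21.1 to 78.9%), where their lengths would give 3.61. That interval includes the number given by length. A peak over an end was found at 2 of the 12, where lengths would give 1.63. The highest scores in the list were at a pair of repressors. The corepressor gene groucho (gro) had a peak over an end with a score of 196.3 (21867291 to 21869198), and Hairless (H), the antagonist that binds Su(H), had one over an end with 163.3 (16447406 to 16448017). The ligand genes had little: Delta had 1 peak, of score 13.9, within its 23.5 kb, and the nearest peak to Serrate (Ser) was 21.4 kb away. The gene neur, whose ubiquitin ligase activates the ligands, and the Notch-binding sanpodo (spdo) had none, the nearest peaks lying 6.14 and 4.54 kb off. The Nicastrin gene Nct and rumi, which encodes a glycosyltransferase acting on Notch, had a peak centre 0.973 and 0.497 kb from an end. The remaining overlapped genes were mura with 2 peaks of up to 92.9, and sima (7 peaks, at most 28.0) and wdb (2 peaks, at most 21.0), which also stand in the growth list.

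In the E(spl) complex, the classical direct targets of Notch, E(spl)mbeta-HLH alone among 12 genes had a peak over an end, with a score of 38.6. That is 8.33% of the list, against 8.15% of all genes, and lengths would give 0.576 genes. A peak centre lay within 1 kb of an end at 4 of the 12 (33.3%, against 17.5% of all genes), where lengths would give 1.43. Apart from E(spl)mbeta-HLH these were E(spl)malpha-BFM, E(spl)m2-BFM and E(spl)m3-HLH, whose nearest peaks were weak, at 12.04, 9.49 and 10.85. The peak nearest to E(spl)m3-HLH lay 0.953 kb from an end, close to the 1 kb limit. The peak over E(spl)mbeta-HLH belongs to a group of 5 between 21828136 and 21836409 whose scores ran from 8.76 to 42.8 with a median of 24.4, near the 26.1 of the whole arm. At the other side of the complex, the peak nearest to E(spl)m8-HLH, 1.51 kb from it, was the one of score 196.3 over the end of gro.

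Insulin and growth signalling had the highest share of genes with peaks among the lists. Of its 14 genes 11 were overlapped (78.6%, interval 49.2 to 95.3%), where their lengths would give 4.34. A peak over an end was found at 6, where lengths would give 1.98. The scores differed widely. Akt (325.4) and the Hippo pathway kinase gene warts (wts, 198.1 over an end) had strong peaks, as did CycG with 220.0 inside the gene. The insulin receptor gene InR was overlapped by 9 peaks, of which the strongest (17405403 to 17406334) scored 174.6 and the median was 14.1. The others were weak: foxo, the transcription factor restrained by Akt, had 24.2 at most, the GTPase gene Rheb 17.9, the Warts cofactor gene mats 17.5, the Tor-regulated REPTOR 21.6 and the adaptor gene Lnk 38.5. Pi3K92E, the Hippo scaffold gene sav and Tsc1, an inhibitor of Tor, were not overlapped, and their nearest peaks were 6.98, 54.2 and 21.5 kb away.

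Among genes of patterning and cell fate, 23 of 43 were overlapped, where their lengths would give 14.9, but only 5 had a peak over an end, where lengths would give 6.49. Those 5 were the GATA factor genes grain (grn, 196.1) and pannier (pnr, 66.1), the Pax gene Poxm (131.4), the ligand gene hedgehog (hh, 128.8) and the homeobox gene Drop (Dr, 48.3). The others had peaks inside the gene. The ETS factor gene pointed (pnt), an effector of EGF receptor signalling, held 5 peaks of 194.0, 35.3, 14.8, 35.3 and 9.56. The sex determination genes fru and doublesex (dsx) had 7 and 2 peaks, the highest at 133.3 and 107.7. Homothorax (hth), which encodes the partner of Hox proteins, held 3 peaks of at most 58.9 in 132 kb. Genes without a peak included the gap genes hb (31.3 kb to the nearest) and tll (30.3 kb), the head gene ems (61.6 kb) and atonal (ato, 8.08 kb), the proneural gene of the eye disc.

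In the Hox complexes 4 of 12 genes were overlapped, where lengths would give 4.23. None had a peak over an outer end (interval 0 to 26.5%), against 8.15% of all genes, and lengths would give 1.77. Peaks per 100 kb of gene came to 2.61, against 3.67 for all genes of the arm. Of the 12 genes 8 are over 10 kb long. Among protein-coding genes the rate was 3.32 for those of 10 to 50 kb and 2.34 for those over 50 kb. The peaks were in Abd-B (3, the strongest 165.3, from 12759790 to 12760790), Antp (3, the strongest 127.1), Scr (2, the strongest 81.3) and Ubx (1, of 21.4, in 77.8 kb). No peak overlapped abd-A, Dfd, pb or lab, whose nearest peaks were 8.35, 17.8, 26.4 and 89.9 kb away.

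Chromatin regulators had 6 of 16 genes overlapped, where lengths would give 3.44, and 4 with a peak over an end, where lengths would give 1.80. The Brahma complex genes mor (262.2) and osa (94.7) were among those 4, together with trx (76.1) and the insulator gene mod(mdg4) (12.8). The insulator gene su(Hw) held a peak of 151.3 and the corepressor gene CtBP, which Hairless recruits, one of 119.3. The nearest peaks to Snr1, a further Brahma subunit gene, and to Caf1-55 were 74.7 and 14.9 kb away.

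The cell cycle, ecdysone, stress and ribosomal protein lists each had few overlapped genes, and their counts are given beside the number from length. In the cell cycle list 4 of 15 genes were overlapped (3.12 from length), namely CycG, E2f1 with 5 peaks of up to 50.8, the phosphatase subunit gene tws (46.5) and Ras85D (11.4). The nearest peak to string (stg), the phosphatase that starts mitosis, was 22.3 kb away. Of 8 genes of ecdysone signalling and nuclear receptors 2 were overlapped (1.74 from length). They were Eip93F, a regulator of metamorphosis, with 3 peaks of up to 24.3 and 1 of them over an end, and svp with 1 of 49.5. In the stress list 2 of 12 were overlapped (2.57 from length). The constitutive chaperone gene Hsc70-4 held peaks of 146.9 and 116.2 in 3.93 kb, while none of the 6 heat-inducible Hsp70 genes was overlapped. Those copies are nearly identical, so the lack of calls there is uncertain, since the treatment of reads matching several copies is unknown. The other overlapped gene was cnc, a regulator of the oxidative stress response, with 4 peaks of up to 23.4. Ribosomal protein genes were overlapped in 3 of 23 cases (1.72 from length), with scores of 12.8 to 31.7.

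Nervous system genes were overlapped about as often as all genes, in 5 of 34 cases (14.7%, interval 4.95 to 31.1%) against 13.7%. Of the 34 genes 26 are over 10 kb long, and lengths would give 13.8, more than were overlapped. The 5 were fru, pros (3 peaks, at most 84.7), the acetylcholinesterase gene Ace (51.1, over an end), the potassium channel gene slo (36.6, over an end) and Dys (12.2). Long genes without any peak included side (62.4 kb), nAChRalpha1 (63.3 kb), klg (62.4 kb) and beat-VI (56.6 kb). Of 42 genes of odorant, gustatory and ionotropic receptors 1 was overlapped, Gr97a, where lengths would give 3.11 genes. The interval of that share, 0.0603 to 12.6%, includes the number given by length.

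**Figure D5:**
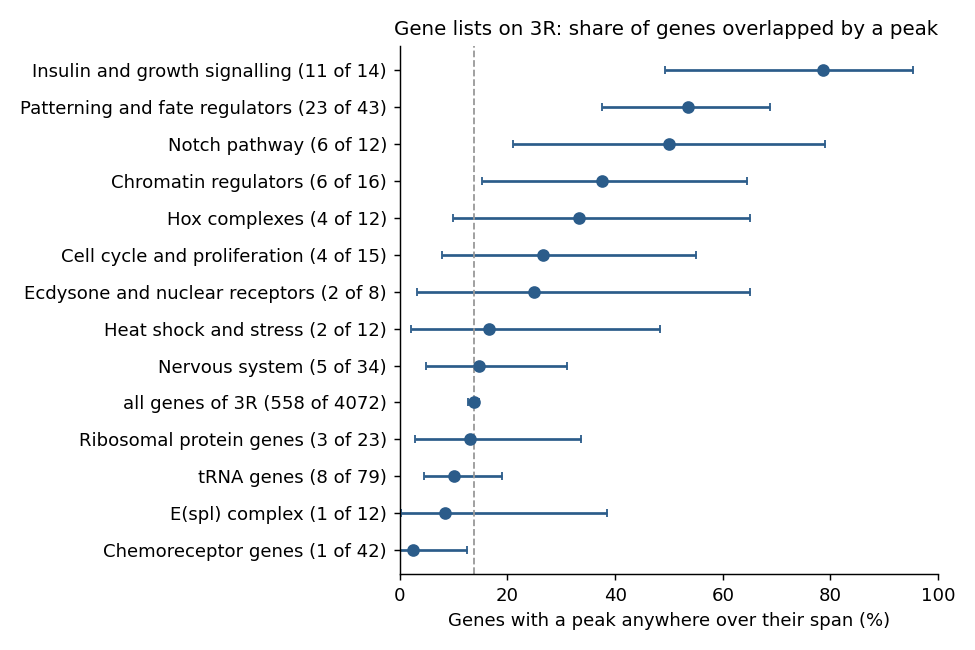
Share of genes on 3R that are overlapped by a peak anywhere in their span (%, horizontal axis) for 13 gene lists and for all genes. Dots are shares, bars are exact 95% binomial intervals, the numbers in brackets are genes overlapped of genes in the list, and the dashed line marks 13.7% for all 4072 genes. Insulin and growth signalling stands highest with 11 of 14, and chemoreceptor genes lowest with 1 of 42. Gene length is not taken into account in the plot, and the lists were chosen with earlier results of these data known.

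Short genes read by RNA polymerase III carried some of the stronger peaks of the arm. Of 79 tRNA genes 8 were overlapped (10.1%, interval 4.47 to 19.0%), against 13.7% of all genes. Lengths would give 4.35, from a class of all genes under 2 kb, while tRNA genes have a median length of 0.073 kb. The overlapping peaks numbered 6, of which 4 scored over 100, against 12.8% of all peaks of the arm. The strongest, from 18222823 to 18223543 with a score of 198.7, covered ends of tRNA:Ser-GCT-1-1 and tRNA:Ser-GCT-2-5. A pair of adjoining peaks of nearly equal score, 166.9 (2644875 to 2647095) and 166.6 (2647282 to 2648662), covered 3 copies of tRNA:Lys-TTT and both 7SL RNA genes of the arm, the RNA of the signal recognition particle. Such copies are close to identical in sequence, so the calls at neighbouring copies may share reads. The 7SK gene snRNA:7SKa, another gene of this class, had a peak of 26.6.

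Some single genes, picked here after their counts were seen, had many peaks. InR and osa had 9 peaks each. The trithorax-group cofactor gene taranis (tara) had 8, the highest at 104.0. There were 7 in fru, in heph, which encodes a polypyrimidine tract-binding protein (at most 51.2), in cic, a repressor controlled by EGF receptor signalling (at most 42.5), in the translational repressor gene pum (at most 42.5) and in sima. In most of these genes weak peaks prevailed, with median scores of 10.2 at osa, 14.6 at tara, 11.8 at heph and 15.8 at cic. The gene Dad, an inhibitor of Dpp signalling, differed, with 3 of its 4 peaks between 86.9 and 124.1.

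The most crowded windows of 50 kb repeated these loci. The window from 13500001 to 13550000, with osa, held 12 peaks, and that from 5900001 to 5950000 held 11. The latter contains CR45054, mir-317, mir-277, mir-34 and Fmr1. The windows with tara (12050001 to 12100000) and with InR and E2f1 (17400001 to 17450000) held 10 each, and the one from 2900001 to 2950000, with Alh, held 9. At the other extreme, 212 of 537 windows held no peak. The longest stretch without one was 434 kb, from 23694016 to 24128277, with 47 genes, 33 of them protein-coding. The next were 343 kb from 21943564 to 22287002 with 33 genes, and 305 kb from 6713037 to 7017541 with 26 genes. The last includes a run of Ugt genes, which encode glycosyltransferases of detoxification. Depth is unknown, so these stretches are regions without a call and not regions shown to lack Notch.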

How the data were processed

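The deposited peak list gives, per the file headers, positions on FlyBase release 5 and names MACS as its source. Per the submitters' processing notes, the tools were MACS2, BWA and CASAVA (1.7.0.2 and 1.7.0.3), and no settings are given. Each peak has the authors' deposited score, of a type not given in the sources used here; how replicates were combined is not given either.

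Peaks were chosen by midpoint. Gene spans came from a RefSeq release 6 table (4072 genes of 3R beyond the boundary). Of 448 listed gene names 16 matched no single gene. The table has no strand, so the planned use of gene starts was replaced by either outer end. Sequences were not used here, so the planned motif search was not run. Named peaks were the 10 with the highest score, the 3 widest, the 5 largest groups, the 5 densest windows and the 3 longest gaps; other genes came from 13 lists, except the genes with most peaks, Dad and the 7SL and 7SK genes, which were chosen after their values were seen. Members and lists were chosen with earlier results of these data known. Scripts were tested on simulated lists. Python 3.11.15, numpy 2.4.6, pandas 2.3.3, scipy 1.17.1 and matplotlib 3.10.9 were used.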

Additional observations from a re-analysis of the deposited data

How the results depend on the processing

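Of 29 alternative values, 12 stayed within the interval of the reported value or, for the number of groups, within 1.5 times of it, and 17 moved. The 378 higher scored peaks came to 14.1 per Mb because fewer peaks enter, with widths of 732 bp at the median, a median score of 58.3, a median distance of 14.1 kb to the nearest peak, 7 groups of 3 or more, 44.4% of peaks over a gene end and 5.62% of genes with a peak over an end. Merging peaks within 1 kb left 651 regions, at 24.2 per Mb, with 540 bp, 29.1, 9.88 kb, 15 groups and 38.9% over a gene end, in the same order. Joining peaks under 2 kb apart gave 18 groups. Counting centres within 1 kb of a gene end gave 59.9% of peaks and 17.5% of genes, and protein-coding genes alone gave 30.2% of peaks. A boundary at 2 Mb and the best shift in each stretch moved none of the values they bear on. That shift was picked to give most peaks over gene ends, so the 36.4% of peaks it gave is no independent check of that share. No paired analysis was possible because peaks have 1 score each and none by library, which also means that leaving out a replicate could not be done. The Su(H) motif was not searched for. Peaks that deeper sequencing would add cannot be estimated, since depth is unknown.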
